A study of Mus musculus with 14 samples.

Results

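Ces1b, Ces1c, Ces1d, Ces1e, Ces1f, Ces1g, Ces2a, Ces2c, Ces2e and Ces3a are 10 mouse carboxylesterases of the Ces1, Ces2 and Ces3 classes. They were followed in liver RNA of male C57BL/6 mice by taking the probe sets whose annotation gave exactly 1 symbol equal to one of them. Of these 10 genes, 9 were measured, each by 1 probe set, among 22180 genes on the array. No probe set gave Ces2c as its only symbol, and Ces2c is not analysed here. The values are log2 intensities, 1 liver per array, on 14 arrays.

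All mice carried Alb-cre, which makes Cre recombinase under the albumin promoter and so in hepatocytes, the controls included. They differed in their floxed copies of Lmna, the gene of lamin A and lamin C, 2 filament proteins of the nuclear envelope. LMNA +/+ mice are called WT, LMNA flx/+ mice HET and LMNA flx/flx mice KO. The Normal Chow groups held 2 livers of WT, 3 of HET and 3 of KO mice, and 3 HET and 3 KO livers came from mice on the High Fat Diet (HFD). HFD was the Surwit Diet with carbohydrate in the drinking water at 42 g/L (55% fructose, 45% sucrose), and both diets were given for 14 weeks. Ages on chow were 24.6 and 27 weeks for WT, 24 to 26.4 weeks for HET and 38.9 weeks for KO mice. HET mice on HFD were 30 to 30.4 weeks old and KO mice on HFD 35.3 weeks. Genotype therefore cannot be told apart from age, nor the diet from age within a genotype. Liver cells in which Cre was never made keep their Lmna copies, and there was no WT group on HFD.

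Carboxylesterases are serine hydrolases that cleave ester and amide bonds, mostly inside the endoplasmic reticulum of hepatocytes and enterocytes. In liver they activate or clear many ester drugs and pesticides, and several of them also hydrolyse neutral lipids. Ces1d, also known as triacylglycerol hydrolase, releases stored triglyceride for the assembly of very low density lipoprotein (VLDL), Ces1g limits lipid accumulation in liver, and Ces1c is secreted into mouse plasma. Members of the Ces2 class hydrolyse drugs with a small acyl group and can act on diglycerides and triglycerides, and the nuclear receptors PXR and CAR, which sense foreign chemicals, induce several family members.

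Lmna itself read 4.50 and 4.43 in WT livers G1 and N1, and 4.29, 4.40 and 4.25 in HET livers F1, F2 and P1 on chow. In KO livers on chow it read 4.09 (H1), 3.78 (H2) and 3.67 (I1). On HFD the HET livers A2, B1 and B2 read 4.07, 4.07 and 4.30 and the KO livers C2, C3 and C4 read 3.90, 4.07 and 3.99. The KO livers on chow lay below all chow controls, while the groups on HFD overlapped. Lmna fell by 0.62 ± 0.14 (SE) on the log2 scale in KO against WT (limma adjusted p = 0.0393), and the differences from HET were -0.47 on chow (adjusted p = 0.0823) and -0.16 on HFD (adjusted p = 0.517). Over both diets KO minus HET for Lmna was -0.31 ± 0.086 (adjusted p = 0.0386). The floxed exons are not given in the sources at hand, so this probe set need not lie in the deleted part. All 9 measured hepatocyte markers were above the array medians of 2.21 to 2.30, and Alb read between 13.36 and 13.53. In bulk liver, fewer cells of a type and less RNA per cell cannot be told apart.

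The genes lie on chromosome 8 in a pair of uninterrupted runs in RefSeq's gene order. The first run reads Ces1a, Ces1b, Ces1c, Ces1d, Ces1e, Ces1f, Ces1g, Ces1h and Ces5a, and the second Ces2a, Ces2b, Ces2c, Ces2d-ps, Ces2e, Ces2f, Ces2g, Ces2h, Ces3a, Ces3b and Ces4a. Both runs have 0 other coding genes between neighbours. Because relatives in such an array are alike in sequence, a probe set may also carry signal of a neighbour, and this was not tested.

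Promoter sequence was available for 7 of the 10 genes, as the 250 bases before the RefSeq start on GRCm38.p6. The 4 below are shown because they belong to the 3 genes with the largest changes, Ces2a, Ces2e and Ces1g, and to Ces1c, whose spread within groups was the smallest of the 9. Capitals mark the motifs searched, on both strands: TTATGTAA (the D-box, read by the clock-output factors Dbp, Tef and Hlf), GCAAAGTT (an HNF4-type element), AGGTCA (a nuclear receptor half-site), CCAAT and TATAAA. A motif on the opposite strand appears as its reverse complement. The motifs were chosen after these sequences had been looked at.
Ces1c, chr8:93131284-93131533, minus strand: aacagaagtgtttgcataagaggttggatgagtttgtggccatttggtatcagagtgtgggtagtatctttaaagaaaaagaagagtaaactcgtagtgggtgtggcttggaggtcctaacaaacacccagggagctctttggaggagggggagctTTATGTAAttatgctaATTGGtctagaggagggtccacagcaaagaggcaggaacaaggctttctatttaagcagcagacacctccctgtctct
Ces1g, chr8:93337210-93337459, minus strand: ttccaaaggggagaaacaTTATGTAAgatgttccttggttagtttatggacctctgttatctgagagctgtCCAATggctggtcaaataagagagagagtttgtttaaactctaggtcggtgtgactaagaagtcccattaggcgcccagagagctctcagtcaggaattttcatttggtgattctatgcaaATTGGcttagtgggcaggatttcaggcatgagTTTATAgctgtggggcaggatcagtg
Ces2a, chr8:104733753-104734002, plus strand: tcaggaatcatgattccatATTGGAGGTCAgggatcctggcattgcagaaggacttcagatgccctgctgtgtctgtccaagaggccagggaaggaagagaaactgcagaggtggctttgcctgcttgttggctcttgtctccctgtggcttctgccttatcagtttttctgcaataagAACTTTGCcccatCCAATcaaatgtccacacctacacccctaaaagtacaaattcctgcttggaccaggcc
Ces2e, chr8:104926010-104926259, plus strand: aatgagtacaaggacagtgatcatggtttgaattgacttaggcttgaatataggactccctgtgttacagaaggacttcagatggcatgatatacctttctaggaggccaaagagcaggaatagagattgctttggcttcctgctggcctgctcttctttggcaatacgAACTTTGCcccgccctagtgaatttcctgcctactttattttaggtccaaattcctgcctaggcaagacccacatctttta

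The D-box letters were found before 4 of the 7 genes, Ces1b, Ces1c, Ces1e and Ces1g, against 0.819% of the 32851 mouse windows of the same length. Ces1b had 2 windows and was counted as 1 gene. In Ces1c they run from -94 to -87 and in Ces1g from -232 to -225, counted from the RefSeq start. The HNF4-type letters were found in the windows of Ces2a, from -71 to -64, and Ces2e, from -81 to -74, and in 0.767% of all windows. AGGTCA stood in the window of Ces2a alone among the 7, directly after a reversed CCAAT with which it shares no base, and in 14.0% of all windows. CCAAT stood before 5 of the 7 genes and in 33.8% of all windows, and TATAAA in that of Ces1g and in 12.4% of all. The whole family had windows for 15 genes. In it the D-box letters also stood before Ces1a, the HNF4-type letters before Ces2f, and AGGTCA before Ces2h and Ces4a. CCAAT stood before 10 of the 15 and TATAAA before 3. Over an alignment of the 250 bases, the windows of Ces1b and Ces1c were 76.9% identical and those of Ces2a and Ces2c 67.1%. Those of Ces2a and Ces2e were 57.3% identical and those of Ces1c and Ces1g 56.6%. Windows of different classes came close to the latter values, with 53.6% for Ces1e and Ces2e and 51.5% for Ces1c and Ces2a. The window of Ces1e was 50.7%, 48.5% and 50.5% identical to those of Ces1b, Ces1c and Ces1g. The genes of each class that share these letters are related copies, and no match shows that a factor binds there.

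Ces2a, a liver and gut drug esterase that also acts on diglycerides and triglycerides, was lower on HFD in both genotypes, and lower in KO than in HET livers on HFD. Its log2 intensity was 10.82 and 10.83 in WT livers G1 and N1, 10.80, 10.63 and 10.82 in HET livers F1, F2 and P1 on chow, and 10.67, 10.62 and 10.36 in KO livers H1, H2 and I1. On HFD it was 9.54, 9.52 and 9.80 in HET livers A2, B1 and B2 and 8.59, 8.47 and 8.31 in KO livers C2, C3 and C4. All livers on HFD were below all livers on chow, and on HFD the KO livers lay below all HET livers. In HET livers HFD lowered Ces2a 2.18-fold (log2 change -1.13 ± 0.12, adjusted p = 0.00142), and in KO livers 4.26-fold (log2 change -2.09 ± 0.12, adjusted p = 7.32e-06). On HFD, KO livers had 2.24-fold less Ces2a than HET livers (log2 change -1.17 ± 0.12, adjusted p = 1.48e-04). On chow the same difference was -0.20 ± 0.12 (adjusted p = 0.526), with a 95% interval of -0.47 to 0.06.

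The test of whether HFD lowered Ces2a more in KO than in HET livers gave a difference of -0.96 ± 0.17 (95% interval -1.34 to -0.59), with an unadjusted p of 9.45e-05 and an adjusted p of 0.0699 over all genes. It passed with a trended and robust variance prior (adjusted p = 0.0219), without dim genes (adjusted p = 0.0410) and without KO liver I1 on chow (adjusted p = 0.0371). With a clock term (Dbp minus Arntl, added after seeing the data) it did not pass (-0.93, adjusted p = 0.108). Without F1 and F2 together, which left P1 alone among the HET livers on chow, the difference was -0.89. The fall in HET livers did not pass when only the groups compared were fitted (adjusted p = 0.0680), nor with age as a linear term (-0.99, adjusted p = 0.155). The order of the group means was WT on chow, HET on chow, KO on chow, HET on HFD and KO on HFD. The first 3 did not differ beyond the limma threshold, and the ranges of KO on chow and HET on HFD, a pair that was not tested, did not overlap.

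Ces2e, a Ces2-class enzyme of gut and liver that hydrolyses pyrethroid esters, was higher in KO than in HET livers over both diets. It read 7.91 and 8.74 in WT livers G1 and N1, 6.92, 7.37 and 8.76 in HET livers F1, F2 and P1, and 9.22, 9.07 and 9.52 in KO livers H1, H2 and I1 on chow. On HFD it read 9.02, 8.84 and 7.59 in HET livers A2, B1 and B2 and 9.33, 9.42 and 9.42 in KO livers C2, C3 and C4. On each diet every KO liver was above every HET liver while the HET groups were wide, with an SD of 0.96 on chow and 0.78 on HFD (n = 3 each). Over both diets Ces2e was 2.37-fold higher in KO (log2 change 1.25 ± 0.31, adjusted p = 0.0222). Within a diet it did not pass, with 1.59 ± 0.43 on chow (adjusted p = 0.0944) and 0.91 ± 0.43 on HFD (adjusted p = 0.261). On chow it passed without HET liver P1 (2.13, adjusted p = 0.0112) and with array weights (1.77, adjusted p = 0.0247). The call over both diets was lost without HET liver F2 (adjusted p = 0.0570), without KO liver I1 (adjusted p = 0.0580) and without F1 and F2 together, where the change was 0.71 (adjusted p = 0.202).

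Ces1g, the Ces1 enzyme whose loss in mice raises liver and plasma lipid, was higher in KO livers. It read 9.43 and 10.56 in WT livers G1 and N1, 9.46, 9.27 and 10.59 in HET livers F1, F2 and P1, and 11.12, 11.18 and 11.27 in KO livers H1, H2 and I1 on chow. On HFD it read 10.03, 9.91 and 8.21 in HET livers A2, B1 and B2 and 11.08, 11.05 and 11.33 in KO livers C2, C3 and C4. All 6 KO livers lay above all 8 control livers. KO livers held 3.02-fold more Ces1g than HET livers over both diets (log2 change 1.59 ± 0.32, adjusted p = 0.00666). On HFD the difference was 3.41-fold (1.77 ± 0.45, adjusted p = 0.0307), and on chow 1.42 ± 0.45 against HET (adjusted p = 0.164) and 1.20 ± 0.50 against WT (adjusted p = 0.367). HFD moved it by -0.39 ± 0.45 in HET and -0.04 ± 0.45 in KO livers, neither past the threshold.

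The KO groups were tight for Ces1g, 11.19 ± 0.078 (SD, n = 3) on chow and 11.15 ± 0.15 on HFD. The control groups were wide, 9.995 ± 0.80 (n = 2) in WT, 9.78 ± 0.71 in HET on chow and 9.38 ± 1.02 in HET on HFD (n = 3 each). The call on HFD was lost without HET liver B2, where the change was 1.18 (adjusted p = 0.0790), and without any one of KO livers C2, C3 and C4 (adjusted p = 0.0776, 0.0665 and 0.103). It was also lost with a trended and robust variance prior (adjusted p = 0.0541) and with only the groups compared in the fit (adjusted p = 0.0622). The call over both diets was lost without F1 and F2 together (change 1.18, adjusted p = 0.0873). On chow a call appeared without HET liver B2 on HFD (1.42, adjusted p = 0.0461).

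**Figure D1:**
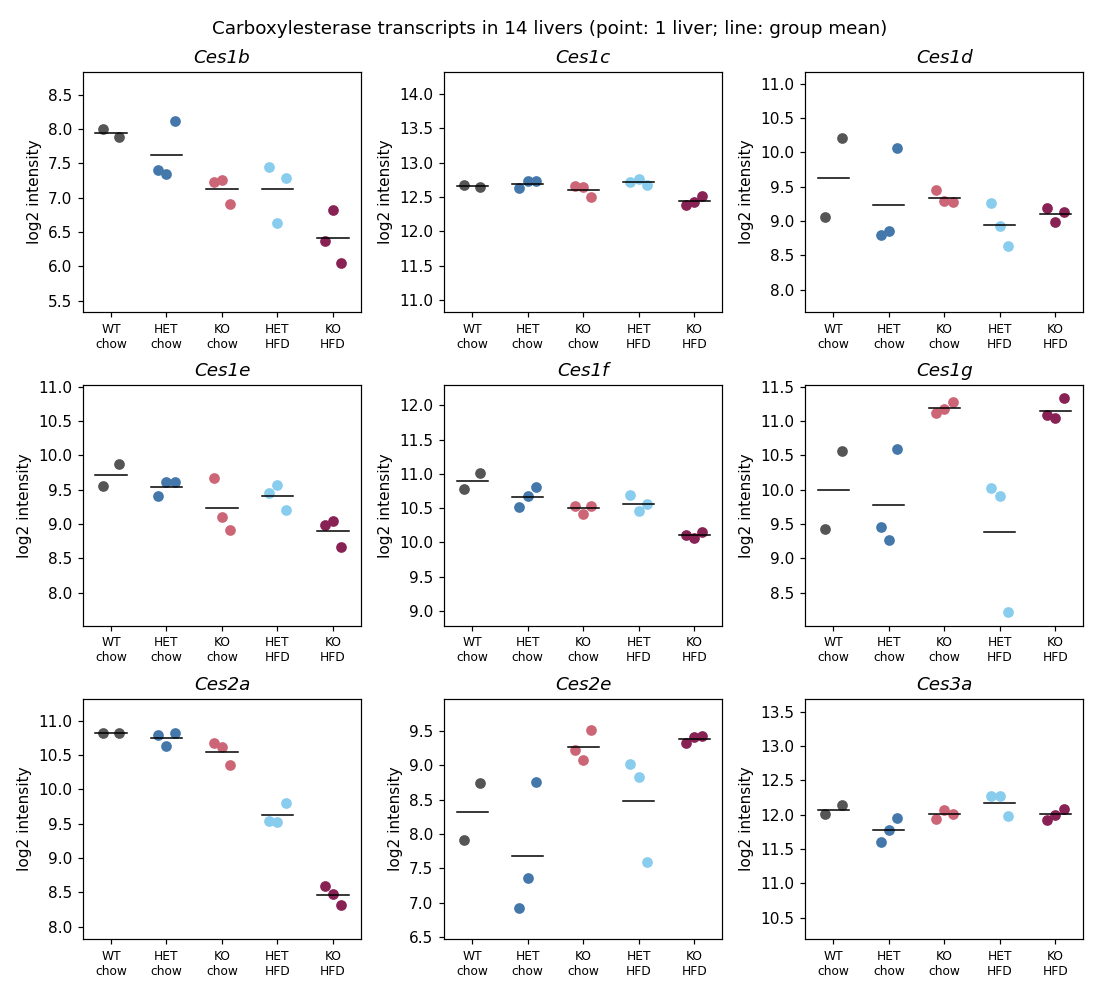
Log2 intensity (vertical axis, an equal span in every panel) of the 9 measured carboxylesterases by genotype and diet, with 1 point per liver and a line at the group mean. Ces2a drops from 10.82 in WT on chow to 8.46 in KO on HFD, and in the Ces1g panel the 6 KO livers sit at 11.05 to 11.33 above all controls.

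Among the other Ces1 genes, Ces1f, an enzyme close to Ces1d that hydrolyses triglyceride, was lower in KO livers by less. It read 10.78 and 11.01 in WT, 10.52, 10.67 and 10.81 in HET on chow, 10.54, 10.42 and 10.53 in KO on chow, 10.69, 10.45 and 10.56 in HET on HFD and 10.11, 10.07 and 10.16 in KO on HFD. KO livers on HFD were the lowest of the series, and on chow KO and HET livers overlapped. The difference of KO from HET was -0.45 ± 0.11 on HFD (adjusted p = 0.0243) and -0.31 ± 0.078 over both diets (adjusted p = 0.0242). The call on HFD was lost when any one of A2, B2, C2, C3 or C4 was left out (adjusted p between 0.0522 and 0.0904) and when only the groups compared were fitted (adjusted p = 0.0621). That over both diets was lost without F2, P1, H2, A2, C2 or C3 (adjusted p between 0.0510 and 0.0593) and when each array was centred on its median (-0.26, adjusted p = 0.0514).

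Ces1b, a less studied gene of the class, read 7.996 and 7.89 in WT, 7.41, 7.35 and 8.11 in HET on chow, 7.23, 7.26 and 6.91 in KO on chow, 7.45, 6.63 and 7.29 in HET on HFD and 6.37, 6.83 and 6.05 in KO on HFD. KO livers on chow lay below both control groups, while on HFD the genotypes overlapped. KO minus HET over both diets was -0.60 ± 0.18 (adjusted p = 0.0572), and this passed without B1 (-0.72, adjusted p = 0.0217), without C3 (-0.70, adjusted p = 0.0315) and without F1 and F2 together (-0.84, adjusted p = 0.0326). Ces1e, which holds beta-glucuronidase in the endoplasmic reticulum, ranged from 9.55 to 9.88 in WT and 9.41 to 9.62 in HET on chow. It ranged from 8.92 to 9.67 in KO on chow, from 9.20 to 9.57 in HET on HFD and from 8.67 to 9.04 in KO on HFD. On HFD the KO livers were all below the HET livers, and KO minus HET was -0.51 ± 0.19 there (adjusted p = 0.127) and -0.41 ± 0.13 over both diets (adjusted p = 0.0699). The latter passed without KO liver H1 (-0.52, adjusted p = 0.0109).

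Ces1c, the plasma carboxylesterase, stayed between 12.39 and 12.76 on all 14 arrays. Its KO livers on HFD, at 12.39, 12.43 and 12.52, lay below its HET livers on HFD, at 12.72, 12.76 and 12.67, a difference of -0.27 ± 0.091 (adjusted p = 0.101) that passed with a trended and robust variance prior (adjusted p = 0.0152) and without dim genes (adjusted p = 0.0464). Intensities this close to the array maxima of 13.47 to 13.77 may compress differences, which was not tested. Ces1d, the triacylglycerol hydrolase, read 9.05 and 10.20 in WT, 8.79, 8.86 and 10.07 in HET on chow, 9.45, 9.28 and 9.28 in KO on chow, 9.27, 8.93 and 8.64 in HET on HFD and 9.19, 8.99 and 9.13 in KO on HFD. KO and HET livers overlapped on each diet, while the KO livers on HFD lay below those on chow (HFD minus chow in KO -0.24 ± 0.33, adjusted p = 0.863). KO minus HET over both diets was 0.13 ± 0.23 with a 95% interval of -0.37 to 0.63 (adjusted p = 0.812). Ces3a ranged from 11.60 to 12.28, and KO minus HET over both diets was 0.03 ± 0.085 (95% interval -0.16 to 0.21, adjusted p = 0.901). HFD minus chow for Ces3a was 0.40 ± 0.12 in HET livers (adjusted p = 0.248), where A2 and B1 at 12.28 and B2 at 11.97 lay above F1, F2 and P1 at 11.60, 11.78 and 11.95.

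Counted over the 9 measured genes, KO against HET on HFD gave 1 rise (Ces1g) and 2 falls (Ces1f and Ces2a), while 7.56% of all genes passed in this comparison. Over both diets there were 2 rises (Ces1g and Ces2e) and 2 falls (Ces1f and Ces2a), with 9.43% of all genes passing. Those shares include dim genes, while all 9 read at least 4 on 2 or more arrays. Of the 10494 genes left by that filter, 17.9% passed on HFD and 22.1% over both diets, where 7 of the 9 passed. HFD gave 1 fall, that of Ces2a, in HET livers, where 0.198% of all genes passed, and the same 1 in KO livers, where 0.316% passed. On chow limma called 0 of the 9 in KO against HET, where 1.92% of all genes passed, and 2 of 9 had an unadjusted p under 0.05, as did 13.4% of all genes. It called 0 in KO against WT, where 1.65% passed, and 4 had an unadjusted p under 0.05, as did 11.8% of all genes. In HET against WT it called 0 of the 9, with 0% of all genes passing, and 1 of 9 had an unadjusted p under 0.05, as did 4.30% of all genes. In the interaction it called 0, with 0.0361% of all genes passing, and 2 of 9 had an unadjusted p under 0.05, as did 9.86% of all genes. With age as a linear term the calls of Ces1f, Ces1g, Ces2a and Ces2e in KO against HET did not pass, and Ces1d passed on HFD (2.61, adjusted p = 0.0178). On HFD Ces1g went from 1.77 ± 0.45 to 4.08 ± 0.99 (adjusted p = 0.0804) under the age term. There Ces2a went from -1.17 ± 0.12 to -1.01 ± 0.33 (adjusted p = 0.210) and Ces1f from -0.45 ± 0.11 to -0.03 ± 0.26. Over both diets Ces2e went from 1.25 ± 0.31 to 5.81 ± 1.45 (adjusted p = 0.102). The estimates of Ces1g and Ces2e thus grew together with their SE. Under that term 1.12% of all genes passed on HFD and 0.951% over both diets. The median change of the 9 was -0.27 on HFD and -0.18 over both diets for KO minus HET, and -0.14 and -0.24 for HFD minus chow in HET and KO, beside medians over all genes of -0.024, -0.022, 0.0021 and -0.0023. The comparisons on one diet share arrays with those over both diets and with the diet comparisons, so their counts are not separate evidence.

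**Figure D2:**
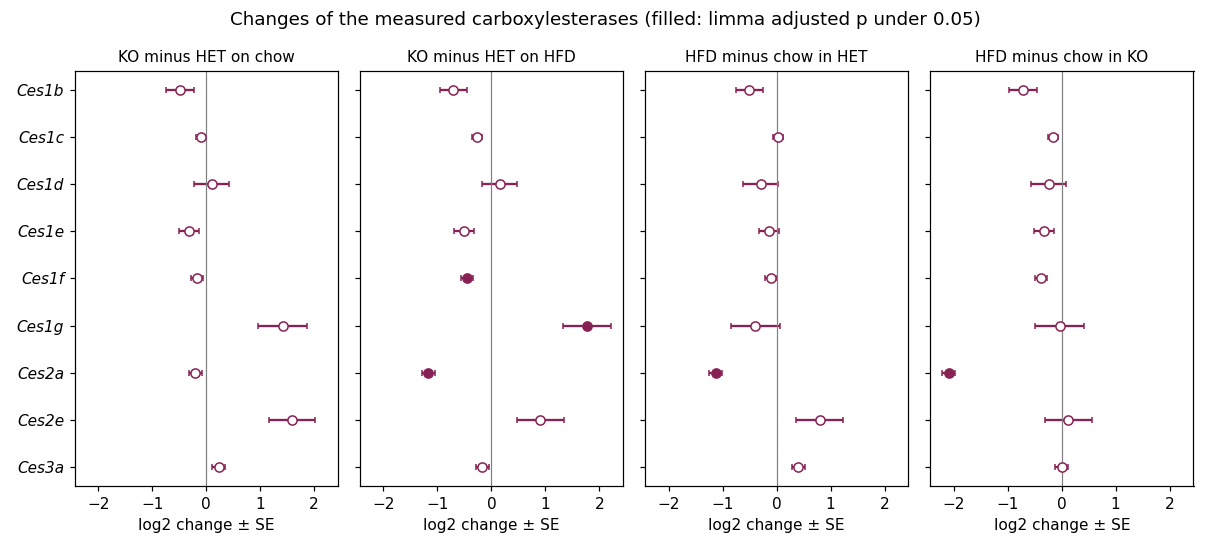
Log2 change with its standard error (horizontal axis) of the 9 measured carboxylesterases (vertical axis) for KO minus HET on each diet and for HFD minus chow in each genotype, filled where the limma adjusted p is under 0.05. Ces1g and Ces2e lie to the right of 0 in KO minus HET on both diets, and Ces2a is the 1 filled point in each diet comparison, at -1.13 and -2.09.

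Within the control groups, Ces1d, Ces1g and Ces2e deviated from their group means in the same livers. HET liver P1 was above its group mean by 0.83, 0.82 and 1.08 for Ces1d, Ces1g and Ces2e, and WT liver N1 was above G1 for all 3. HET liver B2 on HFD was below its group mean by -0.31, -1.17 and -0.89. In the KO groups the deviations of these 3 genes lay between -0.20 and 0.25. Their spread within groups was wide compared with other genes, since the residual SD of Ces1g (0.65), Ces2e (0.62) and Ces1d (0.46) stood at the 98.8, 98.6 and 95.7 percentiles of all genes. Ces1c had a residual SD of 0.063, at the 0.681 percentile, and Ces2a one of 0.13, at the 21.0 percentile.

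Among the factors listed as known to control hepatic carboxylesterases, Nr1i3, the gene of CAR, was named after its values were seen, because it was spread in the same livers. It read 8.13 in G1 and 9.86 in N1, 7.72, 7.46 and 9.97 in F1, F2 and P1, and 9.67, 9.04 and 8.03 in A2, B1 and B2. In KO livers it ranged from 8.82 to 9.17 on chow and from 8.58 to 8.92 on HFD. P1 and N1 were thus its highest chow controls and B2 its lowest HET liver on HFD, as for Ces1g, while KO minus HET over both diets was 0.23 ± 0.42 (adjusted p = 0.814). Dbp, the clock-output factor of the D-box, read 9.14 and 9.70 in G1 and N1, 6.68, 5.70 and 9.56 in F1, F2 and P1, and 10.10, 9.26 and 9.75 in A2, B1 and B2. Its lowest values were those of F1 and F2. P1 and N1 were also the younger mice of their groups, 24 weeks against 26.4 and 24.6 against 27. A clock term, Dbp minus Arntl, was fitted after seeing the data. With it the SE of KO minus HET on chow was 0.21 for Ces1d, 0.34 for Ces2e and 0.41 for Ces1g. Without it the SE was 0.33, 0.43 and 0.45. The change itself went from 0.10 to -0.13 for Ces1d, from 1.59 to 1.33 for Ces2e and from 1.42 to 1.21 for Ces1g. With the term the SE was also lower for Ces1b (0.21 against 0.25), Ces1f (0.102 against 0.110) and Ces3a (0.119 against 0.120). It was higher for Ces1c (0.096 against 0.091), Ces1e (0.196 against 0.185) and Ces2a (0.127 against 0.122). Age was fitted only as an alternative for the changes. The parts of CAR, of the clock phase and of age in the spread were not tested.

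**Figure D3:**
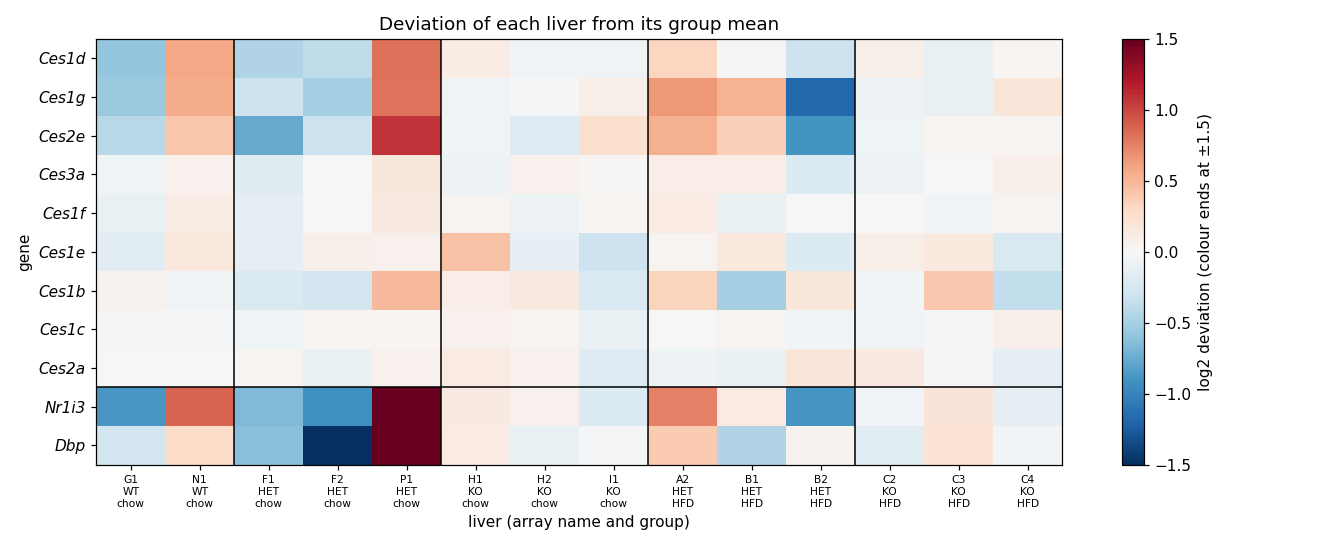
Deviation of each of the 14 livers (horizontal axis, ordered by group) from its group mean on the log2 scale (colour), for the 9 carboxylesterases and, below the line, Nr1i3 and Dbp. Ces1d, Ces1g, Ces2e and Nr1i3 share high values in P1 and N1 and low values in F1, F2 and B2, and the KO columns are pale for these 4 genes.

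The remaining 10 genes of the family were all measured. Ces2g, whose product is a Ces2-class esterase, read 7.60 and 7.60 in WT, 7.33, 7.51 and 7.87 in HET on chow and 8.61, 8.73 and 8.86 in KO on chow. On HFD it read 8.18, 8.09 and 7.50 in HET and 9.27, 9.09 and 9.33 in KO livers. All KO livers were above all controls, and Ces2g rose in KO against HET by 1.16 ± 0.18 on chow (adjusted p = 0.00453), by 1.31 ± 0.18 on HFD (adjusted p = 8.64e-04) and by 1.24 ± 0.13 over both diets (adjusted p = 5.61e-05). Ces3b, the neighbour of Ces3a, read 10.36 and 10.67 in WT, 9.90, 10.15 and 10.21 in HET on chow and 9.53, 9.39 and 8.83 in KO on chow. On HFD it read 10.39, 10.34 and 10.06 in HET and 8.99, 9.09 and 8.44 in KO livers. Each KO liver was below each control, and Ces3b fell in KO livers, with log2 changes of -1.27 ± 0.23 against WT (adjusted p = 0.0129), -1.42 ± 0.21 against HET on HFD (adjusted p = 0.00120) and -1.13 ± 0.15 over both diets (adjusted p = 3.37e-04). Against HET on chow it differed by -0.84 ± 0.21 (adjusted p = 0.0607). Ces1a, Ces1h, Ces2f, Ces2h and Ces5a stayed between 0.57 and 2.43 and Ces2b between 0.97 and 3.54, close to or below the array medians. Over both diets the direct neighbours Ces1f and Ces1g were called in opposite directions.

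**Figure D4:**
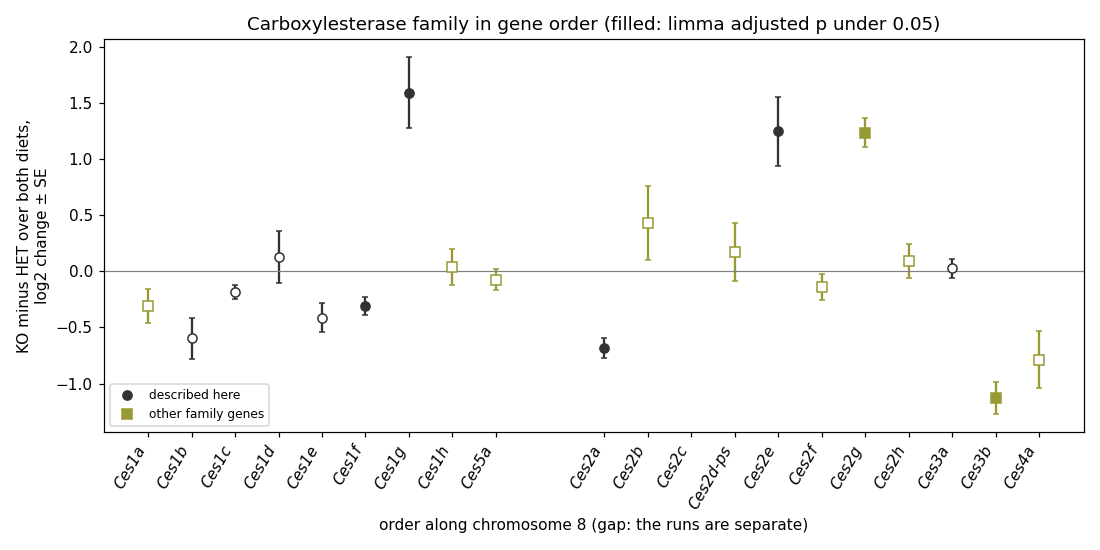
KO minus HET over both diets with its standard error (vertical axis, log2) for the carboxylesterase family in gene order along chromosome 8 (horizontal axis, order and not distance), filled where the limma adjusted p is under 0.05. In the first run Ces1g is at 1.59 beside Ces1f at -0.31, and in the second Ces2a and Ces3b are below 0 while Ces2e and Ces2g are above it, with no value for Ces2c.

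The lists of related genes were chosen with earlier results of these data known. Of 23 measured other lipid and ester hydrolases and their regulators, 6 rose and 0 fell in KO against HET over both diets (9.43% of all genes passed). They included Bche, the plasma butyrylcholinesterase (0.58, adjusted p = 0.00630), Lpl, lipoprotein lipase (1.39, adjusted p = 0.00984), and Nceh1, a cholesteryl ester hydrolase (0.80, adjusted p = 0.0312). On HFD 3 rose, where 7.56% of all genes passed. These were Bche (0.97, adjusted p = 0.00322), Abhd6, a monoacylglycerol lipase (1.34, adjusted p = 0.0154), and Lpl (1.77, adjusted p = 0.0218). The median over these 23 genes was 0.19 over both diets, beside -0.022 for all genes. Of 16 measured genes of VLDL assembly and secretion, 0 passed in KO against HET over both diets, and on HFD Apobec1, the apolipoprotein B messenger editing enzyme, rose (0.58, adjusted p = 0.0443) and Apob fell by 0.36 (adjusted p = 0.0429). Apoa4 rose on HFD in HET livers (3.14, adjusted p = 9.48e-04), where 0.198% of all genes passed.

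Of 14 factors known to control hepatic carboxylesterases, 1 rose and 1 fell in KO against HET over both diets, where 9.43% of all genes passed. Nfe2l2, the gene of NRF2, rose (0.40, adjusted p = 0.0172) and Onecut1, the gene of HNF6, fell by 1.02 (adjusted p = 0.0389). On chow Onecut1 fell against HET (log2 change -2.78, adjusted p = 0.00270) and against WT (-3.51, adjusted p = 0.00123). On HFD Hnf4a, the gene of the factor of the HNF4-type element, fell by 0.36 (adjusted p = 0.0423), and Nr0b2, the gene of the repressor SHP, also fell (-0.98, adjusted p = 0.0377) in KO against HET. They were the 2 of the 14 called there, where 7.56% of all genes passed. Of 18 measured genes of drug metabolism in the endoplasmic reticulum, 5 rose and 2 fell in KO against HET over both diets, where 9.43% of all genes passed. Among them were Ephx1, microsomal epoxide hydrolase (0.79, adjusted p = 1.81e-04), Gstm1 (0.60, adjusted p = 0.00163) and Cyp2b10, a target of CAR (1.56, adjusted p = 0.00223). In this list 0 rose and 2 fell on HFD in HET livers, where 0.198% of all genes passed. These were Cyp2b10 (-5.22, adjusted p = 8.64e-05) and Cyp3a11, a target of PXR (-2.22, adjusted p = 0.00128). In KO livers 0 rose and 3 fell on HFD, where 0.316% of all genes passed. These were Cyp2b10 (-3.51, adjusted p = 0.00179), Cyp2c29 (-1.63, adjusted p = 0.00241) and Cyp3a11 (-1.47, adjusted p = 0.0239).

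The genes whose pattern over the 14 arrays was most like that of each carboxylesterase were taken from 6294 genes with a mean log2 intensity of at least 6, by Pearson's r, as a description over livers that share groups. For Ces2a they were Slco1a4, an organic anion transporter (r = 0.953), Cyp2c29 (0.950) and Ddrgk1 (0.946). For Ces1g they were Aldh1a1, a retinaldehyde dehydrogenase (r = 0.981), Acsf2 (0.975) and Cmas (0.962), and for Ces2e Rarres1 (0.966), Decr2 (0.958) and Them7 (0.952). For Ces1f they were Tk1 (r = 0.932), Crybg3 (0.931) and Rbbp4 (0.927), and for Ces1b Acp1 (0.945), Timm9 (0.945) and Brwd1 (0.927). For Ces1c they were Prpf8 (r = 0.938), Srcap (0.933) and Msh3 (0.915), and for Ces1e Adra1b (0.904), Nsun2 (0.900) and Map4k5 (0.898). Ces1d and Ces3a had lower values, with Lypla1 (r = 0.901), Plcg1 (0.881) and Afg3l2 (0.865) for Ces1d, and Rnf152 (0.881), Slc2a5 (0.879) and Pank1 (0.879) for Ces3a.

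Some markers of other cells were called between genotypes beside these results. Of 12 macrophage markers, 3 rose and 1 fell in KO against HET over both diets, where 9.43% of all genes passed. Of 10 stellate cell markers, 4 rose and 2 fell in the same comparison. The mean macrophage marker level of a liver was 6.16 to 6.67 in WT, 6.15 to 6.78 in HET and 6.49 to 6.92 in KO on chow, and 6.41 to 6.94 in HET and 7.13 to 7.24 in KO on HFD. That of the stellate markers was 6.10 to 6.57, 6.22 to 6.89 and 6.65 to 6.97 in the same chow groups and 6.29 to 6.64 and 6.94 to 7.17 on HFD, and none of these markers was below the array median. The mean of the 9 hepatocyte markers was 12.70 to 12.81 in the 3 chow groups, 12.76 to 12.80 in HET on HFD and 12.59 to 12.61 in KO on HFD. In KO against HET on HFD, where 7.56% of all genes passed, 2 of the 9 fell. These were Cps1 by 0.53 (adjusted p = 0.00433) and Apoa1 (-0.41, adjusted p = 0.0318). Over both diets, where 9.43% of all genes passed, 1 of 8 intestinal markers rose, Vil1 (2.38, adjusted p = 0.00482). Of 6 pancreatic markers 1 rose, Cela1 (1.61, adjusted p = 0.00101). Cdx2, Lct, Sis and Muc2 and Cpa1, Cpb1, Prss2 and Cel were below the array median. Of 5 cholangiocyte markers 1 rose, beside the same 9.43% of all genes. Among 8 endothelial, 8 lymphocyte, 6 neutrophil and 5 adipocyte markers limma called 0 over both diets. The part of changed cell makeup in the carboxylesterase values was not tested.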

How the data were processed

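Each deposited value is a log2 intensity of 1 probe set, made by the authors with RMA (background correction, quantile normalization and median polish), per the submitters' processing notes, which name RMA and limma without versions. Per the labels' protocols, 400 ng of total RNA per liver was labelled. Of 41345 probe sets, 23521 carried 1 gene symbol in the platform annotation, 1814 several and 16010 none; the brightest per gene was kept, which left 22180 genes. One mean per group was fitted to 14 arrays with limma 3.58.1 in R 4.3.3 (9 residual and 3.83 prior degrees of freedom), with Benjamini-Hochberg adjustment over all genes in each of 8 contrasts and calls at an adjusted p under 0.05. P-values measure the spread between these livers, whose number limits the precision. Promoters were searched with Python 3.11.15 and aligned with Biopython 1.88.

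The carboxylesterases, the related lists, the marker lists and the naming rule were chosen with earlier results of these data known. Named genes are the carboxylesterases, up to 3 called genes per list and contrast with the smallest p, the 3 most alike per carboxylesterase, Lmna and Alb. Nr1i3, Dbp and Arntl were added to these after seeing values. The alternatives were array weights, a trended and robust prior, a filter (log2 of at least 4 on 2 arrays), the mean of probe sets, a second quantile normalization, centring, only the groups compared, a random block for the array name's letter, age, pooled chow controls and leaving out each array; a clock term and leaving out F1 and F2 together were added after seeing the data. On simulated KO and HET arrays on HFD with 22180 genes, 94% of 50 genes given a log2 change of 1 passed. The changed genes were drawn at random from brighter genes, with normal noise at each gene's residual SD. That share need not hold for Ces1g and Ces2e, whose residual SD stood at the 98.8 and 98.6 percentiles of all genes.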

Additional observations from a re-analysis of the deposited data

How the results depend on the processing

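With age as a linear term, 1 carboxylesterase passed in KO minus HET on chow (against 0), 1 in KO minus WT (against 0), 1 in KO minus HET on HFD (against 3), 1 over both diets (against 4), 2 for HFD in KO (against 1) and 1 in the interaction (against 0). For HFD in HET the count stayed at 1, with Ces2a lost (adjusted p = 0.155) and Ces1d gained (adjusted p = 0.0472). Of all genes 249 passed on HFD (against 1677) and 211 over both diets (against 2091). On chow 201 passed in KO minus HET (against 426) and 124 in KO minus WT (against 367). For HFD in HET 271 of all genes passed (against 44), for HFD in KO 132 (against 70) and in the interaction 206 (against 8). The term changed the sign of 24 of 72 carboxylesterase changes, 20 of them called in neither fit; the 4 with a call in either fit were Ces1d in KO minus WT (5.92), for HFD in HET (1.86) and in the interaction (-3.80), and Ces1f over both diets (0.45). Each KO group had a single age, so the age slope came from the WT and HET livers alone. Array weights gave 1 call in KO minus HET on chow, where 547 of all genes passed (against 426). Fitting only the groups compared gave 1 call in KO minus HET on HFD and 0 for HFD in HET. In these fits 1280 and 3 of all genes passed. A trended and robust prior, and likewise the filter on dim genes, gave 7 calls over both diets and 1 in the interaction. Of all genes tested, 10.3% and 22.1% passed over both diets and 0.108% and 0.257% in the interaction. The clock term gave 3 calls on HFD and 5 over both diets, where 1778 and 2336 of the 22180 genes passed.

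Leaving out single arrays gave 0 to 1 calls in KO minus HET on chow, 1 to 4 in KO minus HET on HFD, 2 to 5 over both diets and 0 to 1 in the interaction. Of all 22180 genes, 199 to 520 passed in KO minus HET on chow and 971 to 1788 on HFD. Over both diets 1473 to 2034 passed, and in the interaction 0 to 43. Without B2, C2, C3 or C4, 1 gene passed in KO minus HET on HFD, and without F2, 2 passed over both diets. Over these fits 962 values of single genes kept direction and side of the threshold, 17 lost a call and 7 gained one. Another 22 values, called in neither fit, changed sign, and 0 with a call in either fit did. No paired analysis was possible because the array names number no mice across groups. With the letter of the name as a random block the correlation was 0.051. No letter is shared between groups, and the KO livers on HFD all carry the letter C. A shift common to those livers therefore cannot be told apart from their group.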
